A study of Homo sapiens with 6 samples.

Results

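The 9 genes described here encode subunits of NADPH oxidases (NOX4, NOX1, NOX5, CYBA, CYBB, NCF1 and NCF4) and the GTPases RAC1 and RAC2. They were chosen by name, and all 9 had a row among the 29436 gene symbols of the count table. The cells were hemogenic endothelial cells, the endothelium from which blood arises, grown from the established embryonic stem cell line H1 by co-culture with AGM-S3 stromal cells. The control group of 3 libraries had no added agent, and the treated group of 3 libraries received alpha lipoic acid (100 µg/ml) in the induction medium. Cells positive for CD34, KDR and CD144 and negative for CD43 were sorted on day 8, and each library was made from amplified cDNA of 1000 such cells. The series states its purpose as finding how lipoic acid raises the yield of blood progenitors from pluripotent cells.

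NADPH oxidases are membrane enzymes that pass electrons from NADPH to oxygen and so make superoxide or hydrogen peroxide on purpose, as signals or to kill microbes. The catalytic subunit of each complex is a NOX or DUOX protein. CYBA encodes p22phox, the small membrane partner that NOX1, NOX4 and the phagocyte subunit encoded by CYBB need for stability. The phagocyte enzyme is switched on when cytosolic proteins, among them p47phox (NCF1) and p40phox (NCF4), and a GTP-bound RAC protein join it, whereas NOX4 is active without them and is known as the main oxidase of endothelium. RAC1 is found in nearly all cells and RAC2 mainly in blood cells, and both also drive actin assembly.

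Total counts ranged from 30041494 to 41351951 per library, and 14668 to 15824 genes had a count. The gate genes CD34, CDH5 (CD144) and KDR lay between 538 and 4944 CPM (counts scaled to a common library size) in every library and SPN (CD43) had no count. The gate genes themselves differed between the groups, CD34 being 1.78-fold lower (edgeR adjusted p = 1.13e-06), CDH5 1.55-fold lower (0.000344) and KDR 1.17-fold higher (0.00409) with lipoic acid, and their part in the members' results was not tested. In 4 libraries, the 3 with lipoic acid and untreated replicate 1, even numbers made up at least 99.13% of nonzero counts, while the other untreated libraries had 51.97% and 52.01%, so 1 count there can stand for less than 1 independent read. Of 13780 genes tested, 47.4% were called different between the groups at an adjusted p under 0.05. The labels do not say whether the replicates were separate cultures, so p-values reflect only how these libraries scatter, possibly for technical reasons. In such bulk samples, fewer cells of a type and less RNA per cell cannot be told apart.

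Transcripts of 3 members fell with lipoic acid, NOX4, RAC1 and RAC2, and those of NOX1 and CYBA did not pass the test. The other 4 members, NOX5, CYBB, NCF1 and NCF4, had no count in any library and could not be tested. So 3 of 5 tested members were called lower and 0 higher, where 23.3% of all tested genes were called lower and 24.2% higher. For that 0, edgeR at an unadjusted p under 0.05 and DESeq2 at an adjusted p under 0.05 also gave 0. The median log2 fold change was -0.48 over the 5 tested members and -0.01 over all tested genes. The groups did not overlap for NOX4, RAC1 and RAC2, as for 59.1% of tested genes in either direction, 28.8% lower and 30.4% higher.

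**Figure D1:**
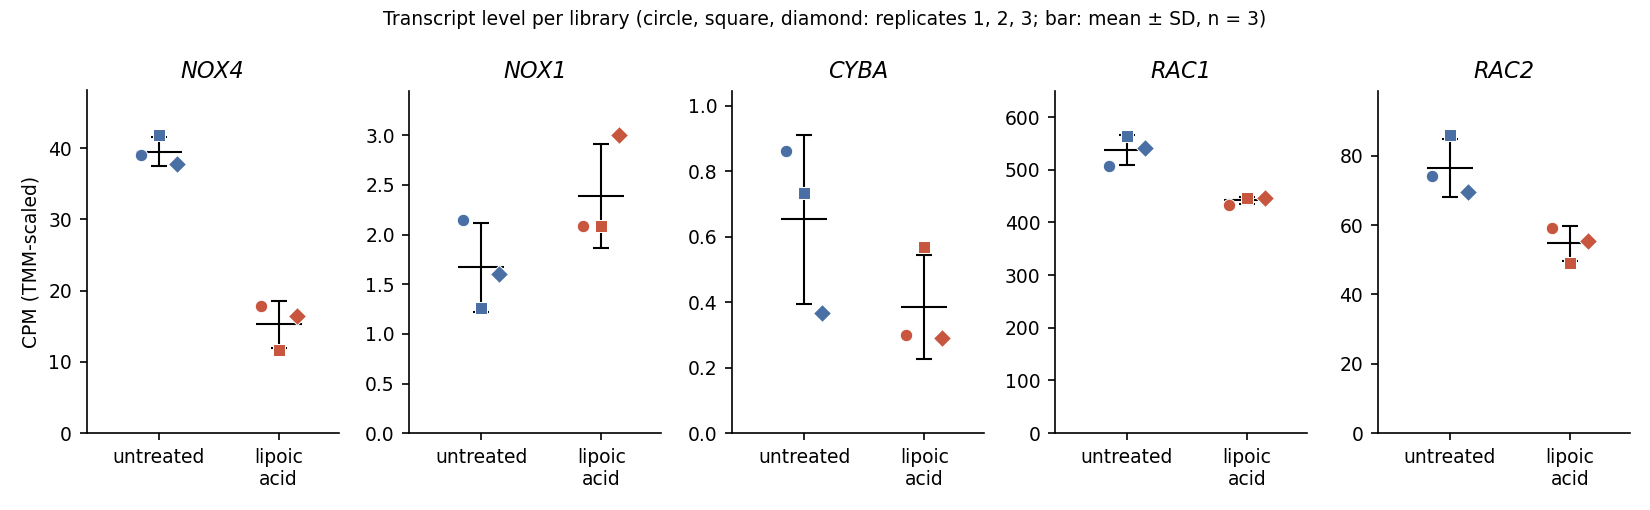
Transcript levels in CPM (linear axes from 0) of the 5 detected members in each of the 3 untreated and 3 lipoic acid libraries, with bars for mean ± SD. All lipoic acid points lie below all untreated points for NOX4, RAC1 and RAC2, while the groups overlap for NOX1 and CYBA.

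NOX4 (chromosome 11, 89324356 to 89498187, minus strand, GRCh38) encodes an oxidase that releases mainly hydrogen peroxide. In replicates 1 to 3 its level was 39.0, 41.8 and 37.8 CPM untreated and 17.9, 11.6 and 16.4 CPM with lipoic acid. The lowest untreated library thus lay above the highest lipoic acid library, and lipoic acid replicate 2 was the lowest of all. The means were 39.5 ± 2.05 and 15.3 ± 3.29 CPM (SD, n = 3 each). The fitted change was a 2.58-fold fall with a 95% interval of 2.07 to 3.20-fold (log2 -1.37, SE 0.14, edgeR adjusted p = 5.49e-05). Without lipoic acid replicate 2 the fall was 2.29-fold (edgeR adjusted p = 0.000111, with a range over 23 settings of 2.06e-18 to 0.00579). In the 4 libraries of even counts, which hold 1 control (untreated replicate 1) whose spread is taken from the treated libraries, it was 2.54-fold.

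NOX1 (chromosome X, 100843324 to 100874345, minus strand) encodes the superoxide-making oxidase best known from colon epithelium and vascular smooth muscle. Untreated replicates 1 to 3 gave 2.15, 1.26 and 1.60 CPM, and those with lipoic acid 2.09, 2.09 and 3.0 CPM. Untreated replicate 1 lay above 2 of the 3 lipoic acid libraries. The log2 fold change was 0.52 (SE 0.32, 95% interval -0.20 to 1.23, edgeR adjusted p = 0.21), an interval that leaves room for a rise of more than 2-fold as well as for a small fall.

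The proportion of the 2 catalytic members that were detected was compared within each library. The ratio of NOX4 to NOX1, each in CPM per kb of exon, came to 7.51, 13.7 and 9.82 for replicates 1 to 3 without and to 3.55, 2.30 and 2.27 with lipoic acid. The mean ratio was 10.3 ± 3.13 untreated and 2.71 ± 0.729 with lipoic acid, and the groups did not overlap. An exact two-sided permutation test gave p = 0.1, the smallest that 3 libraries against 3 allow, and 0.3 after Benjamini-Hochberg adjustment over the 3 ratios computed. Another of these ratios, NOX4 to CYBA, was 37.7 ± 16.9 untreated and 25.1 ± 12.1 with lipoic acid. Its groups overlapped (exact two-sided permutation p = 0.5).

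The catalytic subunits NOX5 and CYBB were not detected. NOX5 (chromosome 15, 68930525 to 69062743) encodes an oxidase with calcium-binding EF hands. CYBB (chromosome X, 37780011 to 37813461) encodes gp91phox of the phagocyte enzyme. Both had 0 counts in all 6 libraries. A count of 0 allows up to 0.039 CPM over the untreated group and 0.0532 CPM over the lipoic acid group, taking 3 counts with even counts halved, and covers counting error only. No fold can be given for either gene. Other genes on the same strand share 8.76% of the exons of NOX5.

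CYBA (chromosome 16, 88643283 to 88651152, minus strand), the gene of p22phox, was found at the edge of detection. Its counts were 28, 22 and 11 in untreated and 12, 18 and 12 in lipoic acid replicates 1 to 3, or 0.861, 0.732, 0.366, 0.299, 0.570 and 0.290 CPM in the same order. The groups overlapped, since lipoic acid replicate 2 exceeded untreated replicate 3. The log2 fold change was -0.77 (SE 0.55, 95% interval -2.00 to 0.46, edgeR adjusted p = 0.275). The longest CYBA transcript has a GC content of 61.3%, against 37.8% for NOX4, 44.0% for NOX1, 44.6% for RAC1 and 57.4% for RAC2.

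High GC content went with low detection in these libraries. Among protein-coding genes, cut into 10 bins by transcript GC content, 78.4% of the lowest bin passed the filter on low counts, 65.2% of the bin that holds CYBA and NCF4, and 57.7% of the highest bin, which holds NCF1. A low level of CYBA beside NOX4 is given here as measured, and the part of GC content in it was not tested.

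The cytosolic subunits of the phagocyte enzyme that are members were at 0 counts in every library. NCF4 (chromosome 22, 36860988 to 36878015) encodes p40phox, and its floor is the same as that of CYBB. For NCF1 (chromosome 7, 74773962 to 74789315), which encodes p47phox, a count of 0 says less, because the annotation holds 2 near-identical copies, NCF1B and NCF1C. How reads with several alignments were counted is not given in the sources used here, and neither copy had a row in the table, so NCF1 is uncertain.

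The sequences before the annotated starts are shown for the catalytic subunit that fell (NOX4), its partner CYBA, and NOX1 and CYBB. NOX1 did not pass the test and CYBB had no count. NOX5, another catalytic subunit without a count, is not shown. The printed sequences are from a table of RefSeq promoters on GRCh38.p14 in which 6 of the 9 members were matched, each 5′ to 3′ on the gene's strand. Of the 250 bases before a start, only the stretch outside every annotated GENCODE v29 exon is printed, and NOX4 has 3 annotated starts, of which 2 are given. Capitals mark matches on either strand to any of 7 motifs. These were the GC box GGGCGG, the CCAAT box, the TATA box TATAAA, the GATA motif AGATAA, an ETS motif GAGGAA, another ETS motif CCGGAA, and the antioxidant response element TGACNNNGC.
NOX4, upstream start, chr11:89492225-89492469, minus strand: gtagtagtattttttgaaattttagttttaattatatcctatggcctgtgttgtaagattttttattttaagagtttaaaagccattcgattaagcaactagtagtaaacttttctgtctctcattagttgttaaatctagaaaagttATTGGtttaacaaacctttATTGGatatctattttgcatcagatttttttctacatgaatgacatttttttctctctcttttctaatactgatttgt
NOX4, GC-rich start, chr11:89491566-89491625, minus strand: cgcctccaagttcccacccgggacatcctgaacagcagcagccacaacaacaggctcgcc
CYBA, chr16:88651153-88651303, minus strand: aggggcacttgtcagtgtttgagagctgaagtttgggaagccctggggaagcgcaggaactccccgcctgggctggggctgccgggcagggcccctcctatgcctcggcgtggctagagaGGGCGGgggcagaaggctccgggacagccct
NOX1, chrX:100874360-100874609, minus strand: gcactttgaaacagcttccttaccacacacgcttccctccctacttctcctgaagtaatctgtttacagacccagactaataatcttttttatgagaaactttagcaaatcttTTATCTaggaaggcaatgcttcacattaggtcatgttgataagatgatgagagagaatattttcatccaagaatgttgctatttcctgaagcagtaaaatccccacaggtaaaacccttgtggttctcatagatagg
CYBB, chrX:37779809-37780010, plus strand: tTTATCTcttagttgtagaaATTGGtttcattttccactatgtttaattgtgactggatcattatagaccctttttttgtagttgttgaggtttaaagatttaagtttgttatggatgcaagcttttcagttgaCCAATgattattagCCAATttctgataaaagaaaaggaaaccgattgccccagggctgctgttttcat

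These upstream windows differ in base composition. Over the whole 250 bases, the GC-rich NOX4 start had 72.0% GC and 23 CpG sites and CYBA 73.6% and 18, while the upstream NOX4 start had 26.4% and 1, NOX1 38.4% and 1, and CYBB 34.0% and 1. The median over 35116 RefSeq promoters was 58.0% GC and 11 CpG sites. The CYBA window held 6 GC boxes, of which 1 is in the printed stretch, a motif found in 42.6% of all windows. CYBB held 4 CCAAT matches, 3 of them printed, 1 printed match to the GATA motif, and 1 to GAGGAA in the unprinted part. NOX1 held 1 printed GATA match, and the upstream NOX4 window 2 printed CCAAT matches. Of all windows 32.0% hold CCAAT, 9.17% the GATA motif and 23.6% GAGGAA. The GC-rich NOX4 window had 1 match each to CCGGAA and GGGCGG, 67 and 38 bases before the start and outside the printed stretch. None of these 5 windows held TGACNNNGC, a motif in 10.9% of all windows, and that says only that these letters are not there.

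RAC1 (chromosome 7, 6374523 to 6403977, plus strand), the GTPase that activates NOX1 and the WAVE actin regulators, was the most abundant member. It was measured at 507, 564 and 541 CPM in untreated and 434, 446 and 446 CPM in lipoic acid replicates 1 to 3. Each lipoic acid library lay below each untreated one, with a spread of 6.86 CPM (SD) around 442 against 28.6 around 537. The fall was 1.22-fold, with a 95% interval of 1.12 to 1.32-fold (log2 -0.28, SE 0.05, edgeR adjusted p = 0.00212). It did not pass edgeR's test against a fold of 1.2 (adjusted p = 0.339). The other 22 settings kept the call, barely so without both libraries numbered 3 (edgeR adjusted p = 0.0495). Among these 22, the looser threshold of 0.1 on the same fit could not lose a call. The annotation lists 9 processed pseudogenes of RAC1, none with a row in the table.

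RAC2 (chromosome 22, 37225261 to 37244448, minus strand), the RAC protein best known from neutrophils and lymphocytes, also fell. Its level was 74.1, 85.9 and 69.5 CPM in untreated and 59.2, 49.2 and 55.5 CPM in lipoic acid replicates 1 to 3. The groups did not overlap, and the number 2 libraries held both the highest and the lowest value. The means were 76.5 ± 8.44 and 54.7 ± 5.04 CPM, a 1.40-fold fall with a 95% interval of 1.21 to 1.62-fold (log2 -0.48, SE 0.10, edgeR adjusted p = 0.00241). With a trend in GC content and exon length removed, RAC2 was 1.27-fold and RAC1 1.23-fold lower, both still called.

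A different proportion of RAC1 to RAC2 was not shown. The ratio per kb of exon was 5.56, 5.34 and 6.32 untreated and 5.96, 7.36 and 6.54 with lipoic acid in replicates 1 to 3, with overlapping groups (exact two-sided permutation p = 0.2, adjusted 0.3).

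Levels of different genes are comparable only per length, and in CPM per kb of exon the members kept 1 order in both groups. RAC1 led with 173 ± 9.17 untreated and 142 ± 2.20 with lipoic acid, followed by RAC2 with 30.2 ± 3.34 and 21.6 ± 1.99. NOX4 followed with 6.48 ± 0.336 and 2.51 ± 0.540, NOX1 with 0.661 ± 0.178 and 0.946 ± 0.207, and CYBA with 0.194 ± 0.0766 and 0.115 ± 0.0473 (SD, n = 3 each). No 2 neighbours in this order overlapped between libraries of 1 group. Over all 6 libraries, 98.6% of tested genes lay below RAC1 in level per kb, 88.0% below RAC2, 54.1% below NOX4, 24.9% below NOX1 and 6.74% below CYBA. With the length of the longest transcript in place of all exons the order of the means was the same, but untreated NOX1 (0.500 to 0.851) and CYBA (0.258 to 0.609) then overlapped.

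**Figure D2:**
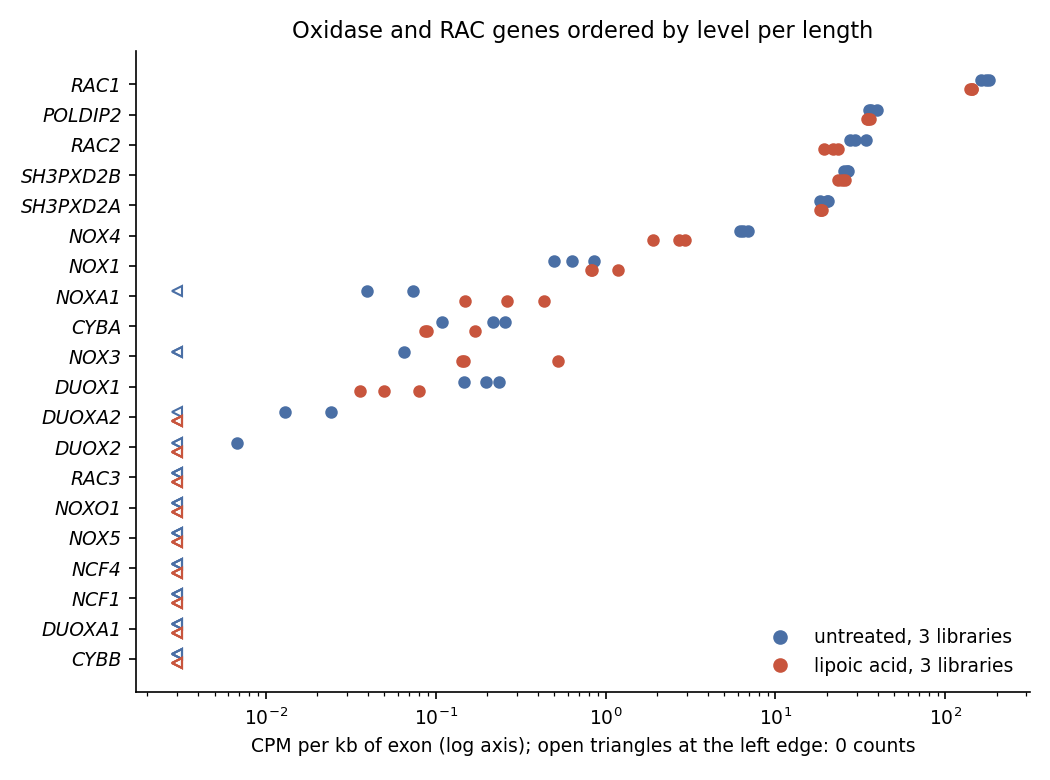
Level in CPM per kb of exon (log axis) of the 9 members and 11 other oxidase genes, 1 point per library, with open triangles for libraries without a count. RAC1 is highest, NOX4 is the highest catalytic subunit, and NOX5, CYBB, NCF1 and NCF4 have triangles in every library.

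Other genes of the oxidase complexes were taken from a list of 12, of which all but CYBC1 matched a row and 4 could be tested. Of these 4, 1 fell and 3 did not pass. Their median log2 fold change was -0.09. Shares called over all tested genes were 23.3% lower and 24.2% higher. DUOX1, a dual oxidase of epithelia, fell 3.46-fold from 1.69 ± 0.386 to 0.483 ± 0.195 CPM (SD, n = 3 each, edgeR adjusted p = 0.00763). DUOX1 lost its call when the fit held the 4 even-count libraries alone, with 1 control (2.64-fold lower, adjusted p = 0.145), or without both libraries numbered 3 (3.26-fold lower, adjusted p = 0.102), the range over 23 settings being 0.00268 to 0.145. Opposite-strand genes, DUOXA1 among them, share 6.38% of its exons.

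The remaining activators and partners did not pass the test or were barely detected. POLDIP2, which binds p22phox and raises NOX4 activity, was at 79.2 ± 4.61 and 74.5 ± 1.79 CPM (edgeR adjusted p = 0.298). SH3PXD2A and SH3PXD2B, which encode the p47phox-related adaptors TKS5 and TKS4, did not pass either (adjusted p = 0.306 and 0.218), with log2 fold changes of -0.08 and -0.09. SH3PXD2A was called lower only without untreated replicate 2 (adjusted p = 0.0468, with a range over 23 settings of 0.0468 to 1.0). NOX3, an inner ear oxidase, had 0, 0 and 4 counts in untreated and 12, 34 and 12 in lipoic acid replicates 1 to 3. NOXA1, the activator of NOX1, had 4, 0 and 2 against 10, 14 and 30 counts. Both genes were too low to be tested. Without a filter on low counts, 8 of the listed genes had a value, and 2 were called higher and 1 lower. With even counts halved, the count ratio of the lipoic acid to the untreated group was 9.89 for NOX3 (95% exact binomial counting interval 3.47 to 38.7) and 9.20 for NOXA1 (3.21 to 36.2). NOXO1, the organiser of NOX1, DUOXA1 and RAC3 had no count in any library. DUOX2 and DUOXA2 had at most 2 counts in a library and none with lipoic acid. An opposite-strand gene covers 98.8% of the exons of NOXO1 and strand use is not given, so its 0 is uncertain.

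Exchange factors, which load RAC with GTP, numbered 21 tested from a list of 22, of which 5 fell, 3 rose and 13 did not pass. Their median log2 fold change was -0.04. Over all tested genes 23.3% were called lower and 24.2% higher, so the share that fell was near that background, and the share that rose was below it. PREX2 fell 3.42-fold from 47.8 ± 0.864 to 14.0 ± 0.330 CPM (edgeR adjusted p = 2.08e-07), and its relative PREX1, a RAC2 activator, 1.59-fold from 271 ± 9.55 to 170 ± 4.19 CPM. TIAM1, a RAC1 activator at cell junctions, fell 2.25-fold from 38.0 ± 4.18 to 16.9 ± 0.827 CPM. DEF6 and ARHGEF7 were 3.05-fold and 1.31-fold lower. DOCK3, known from neurons, rose 7.71-fold to 3.32 ± 0.627 CPM.

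**Figure D3:**
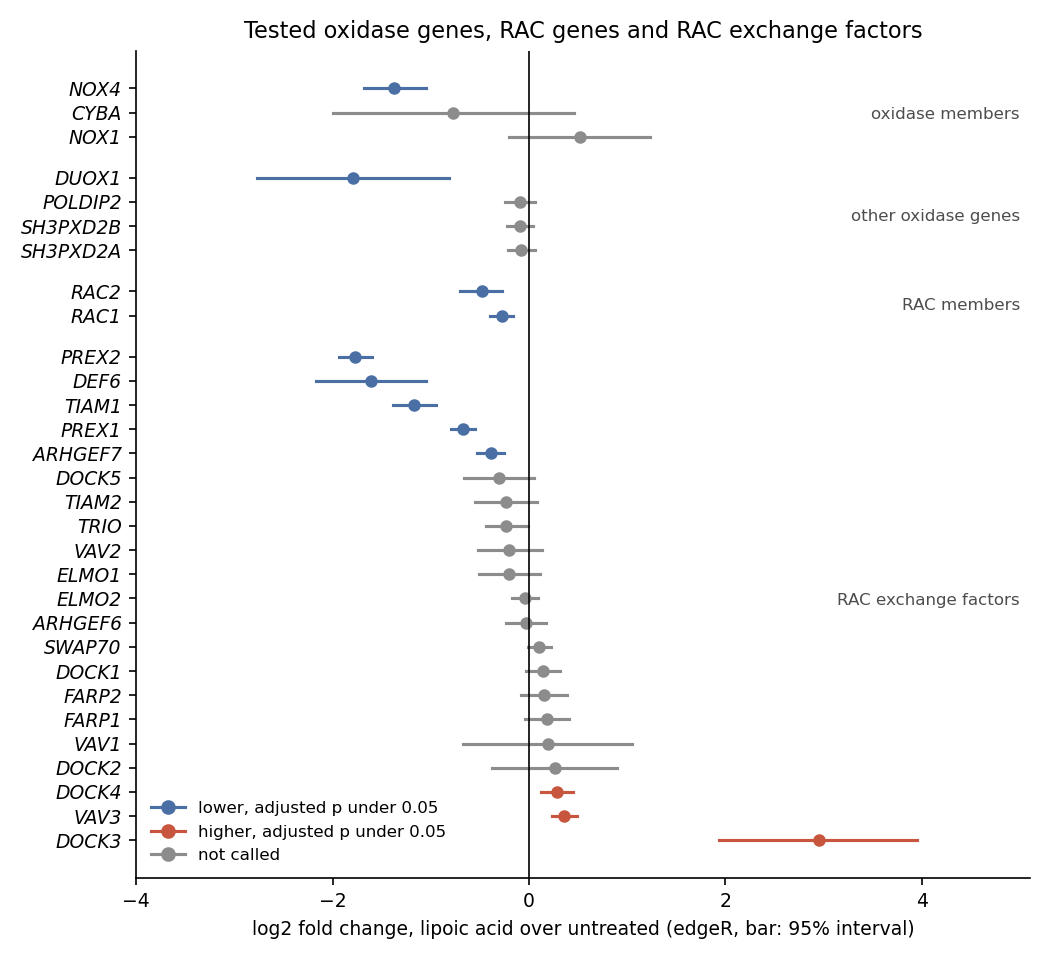
Log2 fold changes of lipoic acid over untreated with 95% intervals (edgeR) for the tested oxidase genes, RAC genes and RAC exchange factors, coloured by call. NOX4 (-1.37), DUOX1 (-1.79), RAC1 (-0.28), RAC2 (-0.48) and 5 exchange factors called lower lie left of 0, and DOCK3 (2.95) lies farthest to the right.

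Genes that return RAC to its inactive form or hold it in the cytosol were tested for 13 of 15 listed. Of these 4 fell, 2 rose and 7 did not pass. Their median log2 fold change was -0.20. Over all tested genes 23.3% were called lower and 24.2% higher. Without lipoic acid replicate 3, 2 fell and 2 rose. ARHGDIB, the dissociation inhibitor of blood and endothelial cells that keeps RAC proteins soluble, fell 1.70-fold from 1144 ± 115 to 673 ± 9.45 CPM (edgeR adjusted p = 2.34e-05). ARHGAP22, a RAC GTPase-activating protein, fell 2.71-fold and BCR 1.21-fold (edgeR adjusted p = 0.0172), which was not called without lipoic acid replicate 3. SRGAP3 was called lower at adjusted p = 0.0436 and kept that call in 7 of the 22 other settings that gave a value. The chimaerins CHN1 and CHN2, GTPase-activating proteins for RAC, were both called higher. CHN1 rose 1.78-fold from 9.24 ± 1.10 to 16.4 ± 1.32 CPM. CHN2 had 0, 4 and 0 counts untreated against 162, 160 and 166 with lipoic acid, a count ratio of 83.2 with a counting interval of 32.1 to 308 and even counts halved. A gene on the same strand shares 36.81% of the exons of CHN2.

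Effectors, the proteins that active RAC binds and others of their complexes, had 15 listed and tested members. Beside 24.2% of all tested genes called higher and 23.3% lower, 7 of these members rose, 4 fell and 4 did not pass. Their median log2 fold change was 0.02. These counts depended on single libraries: 4 rose without lipoic acid replicate 1 or 2, and 3 rose and 2 fell without lipoic acid replicate 3. IQGAP1, a scaffold of the actin cortex, rose 1.21-fold, and CYFIP1, a WAVE complex subunit that binds RAC, 1.18-fold. PAK2, a RAC-activated kinase, fell 1.23-fold, BRK1, a small WAVE subunit, 1.24-fold and BAIAP2 1.42-fold (edgeR adjusted p = 0.0127, 0.0178 and 0.00979). PAK2 lost its call in 4 of 23 other settings, BRK1 in 5 and BAIAP2 in 5. PAK3 was at 0.492, 1.13 and 0.465 CPM untreated and had no count with lipoic acid, so it was at least 13.7-fold lower, against a floor of 3 counts over the group. Once trends in GC content and length were taken out, 2 effectors were called higher and 4 lower. IQGAP1 kept its call there (1.11-fold) and CYFIP1 did not.

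**Figure D4:**
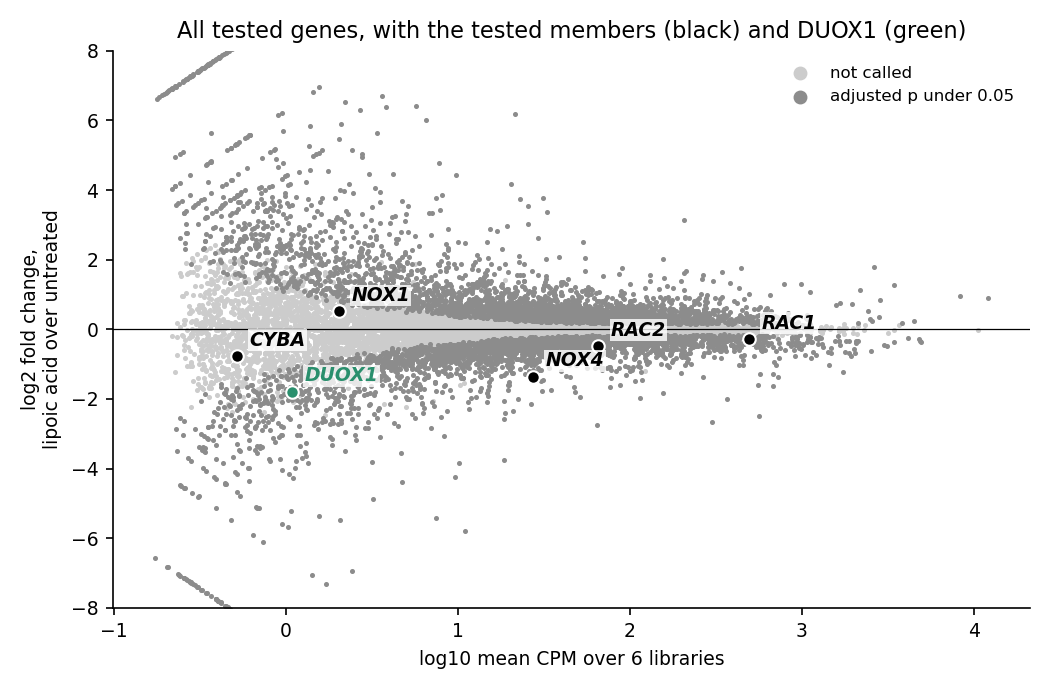
Log2 fold change of lipoic acid over untreated against log10 mean CPM for all 13780 tested genes, except 87 beyond 8 log2 units, with the 5 tested members in black and DUOX1 in green. NOX4, RAC1 and RAC2 lie below 0, and NOX1 and CYBA lie among genes that were not called.

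Fold changes in these libraries varied with transcript composition, and the members differ in it. The median log2 fold change was 0.07 in the lowest GC bin of protein-coding genes, which holds NOX4, -0.09 in the bin that holds RAC2 and -0.27 in the highest bin. The share of tested genes called lower was 17.6%, 27.9% and 32.4% in these bins. With both trends removed, the fall of NOX4 was 2.85-fold and that of RAC2 1.27-fold, against 2.58 and 1.40-fold.

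Cell types other than endothelium that use these oxidases were followed by their markers. Beside the marker counts that follow, 23.3% of all tested genes were called lower and 24.2% higher. Of 10 tested smooth muscle and mesenchymal markers (11 listed), cells in which NOX4 is also known, 5 fell and 1 rose, and their summed level was 1291 to 1597 CPM untreated and 893 to 1268 CPM with lipoic acid. Without lipoic acid replicate 2, 3 fell and 1 rose. MYH11, a defining gene of mature smooth muscle, had no count, but other smooth muscle genes were detected. ACTA2 went from 44.4 to 33.3 CPM and MYL9 from 36.2 to 18.5 CPM, both called lower. TAGLN went from 31.1 to 38.4 CPM and was called higher. CNN1, at 1.18 and 1.37 CPM, was not called. The largest part of the sum was COL3A1, which was not called, at 651 to 839 CPM untreated and 476 to 756 CPM with lipoic acid. In each group the sum was lowest in replicate 2. NOX4 was highest in untreated replicate 2 and lowest in lipoic acid replicate 2. Without both libraries numbered 2 the fall of NOX4 was 2.24-fold (edgeR adjusted p = 2.78e-06). The part of these cells in the NOX4 result was not tested.

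Of 16 phagocyte and blood markers, cells that use CYBB, NCF1, NCF4 and RAC2, 7 had no count in any library, among them PTPRC (CD45), SPI1, MPO and ITGAM. Of the 5 tested 2 fell, and the summed level was 301 to 323 CPM untreated and 247 to 273 CPM with lipoic acid, mostly LAPTM5. The tested markers that fell were FCER1G, from 11.5 ± 1.72 to 5.26 ± 0.108 CPM, and LAPTM5, from 290 ± 7.31 to 244 ± 14.7 CPM. RAC2 fell in the same libraries. Among untested blood markers, LYZ had 0, 0 and 2 counts untreated against 4, 24 and 14 with lipoic acid. S100A9 and CEBPE had 0 counts untreated, against 4, 4 and 4 and 10, 2 and 6 with lipoic acid. When no filter on low counts was set, 9 blood markers had a value, with 2 called higher and 2 lower. The part of blood cells in the RAC2 result was not tested. Without lipoic acid replicate 3, 1 of the blood markers fell. Of 8 endothelial markers 4 fell and 1 rose. Their summed levels were 5113 to 5218 CPM untreated and 3956 to 4077 CPM with lipoic acid. The part of this in the NOX4, RAC1 and RAC2 results was not tested. For the blood and endothelial markers alike, the shares over all tested genes were 23.3% called lower and 24.2% higher.

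Of 10 tested epithelial and endoderm markers (11 listed), 9 rose, where 24.2% of all tested genes were called higher. The tested marker that was not called was EPCAM, at 6.32 ± 1.59 CPM untreated and 5.45 ± 0.725 CPM with lipoic acid. The summed level of the listed markers went from 242 to 268 CPM to 541 to 582 CPM. Most of it was KRT8 and KRT18, with means of 108 and 110 CPM untreated and 246 and 135 CPM with lipoic acid. The rise was 10.3-fold for AFP and 6.10-fold for TTR, against 1.23-fold for KRT18. NOX1, NOXA1, NOX3 and DUOX1 are known from epithelia, and the part of such cells in their values was not tested.

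Over the 6 libraries, 5 genes of at least 5 CPM had a profile most like that of NOX4 by Pearson correlation of log2 CPM. They were ESM1 (r = 0.99876), an endothelial tip cell gene, DHRS2 (0.998), CADM4 (0.99775), ROR1 (0.99699) and NPAS2 (0.99696). ESM1 was at 2339 to 2467 CPM untreated and 1234 to 1550 CPM with lipoic acid, with its minimum in lipoic acid replicate 2 as for NOX4. Of 9788 genes compared, 1521 had r above 0.9, and all points share the same 6 libraries and group difference, so this is a description.

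**Figure D5:**
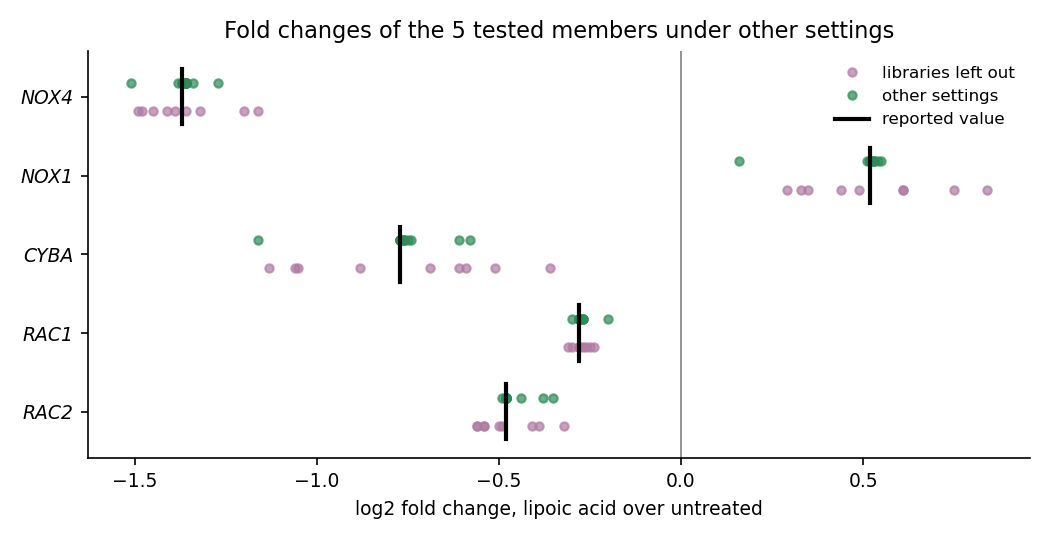
Log2 fold changes of the 5 tested members, lipoic acid over untreated, as reported (black lines) and under other settings, split into those that leave libraries out (purple) and all others (green). NOX4 stays between -1.51 and -1.16, RAC1 between -0.31 and -0.20 and RAC2 between -0.56 and -0.32.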

How the data were processed

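RNA-seq was measured in 6 libraries, 3 untreated and 3 with lipoic acid, grouped by the labels. The deposited values are raw read counts per gene symbol made by the authors, and the submitters' processing notes name HISAT2, featureCounts, DESeq2 and the hg38 build. Versions, strand setting and the treatment of reads with several alignments are not given in the sources used here. The groups were compared with edgeR 4.0.16 in R 4.3.3 (filterByExpr with a minimum count of 10, TMM scaling, quasi-likelihood test, Benjamini-Hochberg adjustment over 13780 genes, threshold 0.05), tested on simulated data. CPM values use TMM library sizes. SE is that of the log2 fold change, and intervals are 95%. Total counts ranged from 30041494 to 41351951, and counting intervals and floors cover counting error only. Positions, exon lengths and GC content are from GENCODE v29, which matched 99.36% of symbols.

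The members and the gene lists were chosen with earlier results of these data known. Some genes are not reported here and were taken out of the lists before counting, and the list counts include genes that are not named. All 9 members and all other listed oxidase genes were named, and from each further list up to 6 called genes with the lowest p. CAT, SOD1 and SOD2 were named by that rule or as the remainder of a short list, and marker genes as the fixed list gave them. The 5 genes most like NOX4 were ranked by Pearson correlation over genes of at least 5 CPM. Alternatives covered scaling, filters, DESeq2 1.42.0, limma 3.58.1, robust moderation, the replicate number as a block, libraries left out, even counts, mitochondrial genes, GC content with length, and thresholds.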

Additional observations from a re-analysis of the deposited data

How the results depend on the processing

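Over 23 other settings, 0 members were called higher and 2 or 3 lower, and no called gene named from the lists changed sign among those settings. POLDIP2, which was not called, went from a log2 fold change of -0.09 to 0.04 after trends in GC content and length were taken out. RAC1 alone among members lost its call, in the test against a fold of 1.2. Genes called numbered 3329 higher and 3205 lower, and 25 and 28 on the gene lists. Without both libraries numbered 3 these were 1857 and 1671, and 13 and 17. In the test against a fold of 1.2 they were 2014 and 1809, and 12 and 18. In the other 21 settings 2512 to 3864 genes were higher and 2282 to 3838 lower. Leaving out 1 library gave 2669 to 3569 higher and 2386 to 3448 lower. With the replicate number as a block, 3354 genes were higher and 3203 lower, with 0 and 3 members and 25 and 30 list genes, and no member's call changed. Libraries of 1 number deviated together with correlations of 0.0598, 0.0602 and 0.0783, and each correlated best with its own number, a hint from the data and not the design. CYBA gave no value with a minimum of 1 CPM. Counts of 11 to 28 for CYBA limit what could be detected.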

Other observations

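Genes that remove the products of the oxidases moved little. CAT, which breaks down hydrogen peroxide, was at 58.1, 52.3 and 55.0 CPM in untreated and 69.3, 67.4 and 65.9 CPM in lipoic acid replicates 1 to 3, without overlap, a 1.22-fold rise (edgeR adjusted p = 0.00554). It lost its call with the 4 even-count libraries alone, where the control is 1 library (1.16-fold higher), and without both libraries numbered 3 (1.24-fold higher). SOD1, the cytosolic superoxide dismutase, was at 188, 252 and 207 CPM untreated and at 176, 175 and 172 CPM with lipoic acid, a 1.24-fold fall (edgeR adjusted p = 0.0210) that was not called in 7 of 23 settings, among them each that left out 1 lipoic acid library. SOD2, the mitochondrial dismutase, did not pass (edgeR adjusted p = 0.187), and SOD3 was too low to be tested.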
